A study of Mus musculus with 6 samples.

Results

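The genes described here are 9 that move, store or buffer calcium in muscle fibres, namely Atp2a1, Atp2a2, Sln, Pln, Casq1, Casq2, Pvalb, Srl and Hrc. Members were all probe sets of the array whose only gene symbol was one of these, which gave 14 probe sets for 8 of the 9 genes, among 22626 probe sets and 12393 named genes. Srl, which codes for the calcium-binding protein sarcalumenin, had no probe set under its symbol and is not analysed here. Transcript levels were measured in 2 muscles, the superficial masseter, which closes the jaw, and the tibialis anterior, which lifts the foot, of normal female C57Bl/6 mice aged 6 months. There were 3 samples of each muscle with 1 array per sample, and the design asked which genes differ between a masticatory and an axial or limb muscle. Whole muscles were used, so a smaller number of cells of a type and less RNA per cell cannot be told apart.

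When a muscle fibre is stimulated, calcium leaves the sarcoplasmic reticulum through the ryanodine receptor and triggers contraction, and the fibre relaxes as pumps called SERCA return the calcium to the store. Fast fibres use mainly the pump SERCA1 (Atp2a1), the store protein calsequestrin 1 (Casq1) and the soluble buffer parvalbumin (Pvalb). Slow fibres and heart use SERCA2 (Atp2a2) and calsequestrin 2 (Casq2), and the small membrane proteins sarcolipin (Sln) and phospholamban (Pln) slow the pumps. Hrc, the histidine-rich calcium-binding protein, lies in the lumen of the store.

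Promoter sequences from RefSeq (GRCm38.p6) matched 6 of the 9 genes. Those of the fast pump and of both calsequestrins are shown because the fast and slow partners of each family are compared below. Each is the 250 bases before the annotated start, 5′ to 3′ on the gene's strand. Capitals mark E-boxes (CANNTG, the motif bound by myogenic regulatory factors) and sites of the MEF2 factors, both searched on both strands.
Atp2a1, chr7:126463074-126463323, minus strand: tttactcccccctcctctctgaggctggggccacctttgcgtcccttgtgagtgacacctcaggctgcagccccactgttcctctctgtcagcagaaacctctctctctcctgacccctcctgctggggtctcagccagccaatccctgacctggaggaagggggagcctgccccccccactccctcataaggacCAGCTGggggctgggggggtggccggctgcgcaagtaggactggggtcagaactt
Casq1, chr1:172219896-172220145, minus strand: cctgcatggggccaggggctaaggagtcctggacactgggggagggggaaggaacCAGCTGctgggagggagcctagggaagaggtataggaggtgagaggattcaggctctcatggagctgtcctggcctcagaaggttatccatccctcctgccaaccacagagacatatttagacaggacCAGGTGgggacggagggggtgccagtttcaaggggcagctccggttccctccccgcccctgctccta
Casq2, chr3:102086165-102086414, plus strand: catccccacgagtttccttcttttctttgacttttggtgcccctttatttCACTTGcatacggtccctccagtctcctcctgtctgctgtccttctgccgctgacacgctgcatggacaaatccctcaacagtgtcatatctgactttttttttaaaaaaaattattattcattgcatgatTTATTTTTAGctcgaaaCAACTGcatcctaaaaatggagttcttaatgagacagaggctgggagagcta
The Atp2a1 sequence held 1 E-box and the sequences of Casq1 and Casq2 held 2 each, and of the 3 shown Casq2 held a MEF2 site. A promoter of the fast-fibre gene Pvalb, whose sequences are not shown, also held a MEF2 site. Among all 32851 promoter sequences of the table, 66.2% held an E-box and 2.92% a MEF2 site in the same 250 bases. A match is a description of these letters and not of binding.

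The deposited values were signal intensities that had already been brought to a common scale, as each array's 2% trimmed mean was 150.1. Each difference is the masseter's mean log2 signal minus that of the tibialis anterior, given with the standard error (SE) or 95% interval of limma and a p adjusted over 13576 probe sets, n = 3 per muscle. A probe set entered that test when its mean log2 signal reached the 40th percentile, a signal of 28.6, and 11 of the 14 member probe sets did so. Both tissues carried muscle transcripts, with 7 of 7 skeletal muscle markers kept and a summed signal of 79880 to 101900 in the masseter and 103700 to 106500 in the tibialis anterior. The median difference of the 7 was 0.0003. The sums include the fast-fibre myosin Myh4, at 5649.2 to 8100 in the masseter and 17512.5 to 20228.3 in the tibialis anterior. The 5 cardiac markers Myh6, Nppa, Nppb, Tnni3 and Myl7 were all under the filter, with a summed signal of 64.2 to 86.1 and 61.9 to 80.0. A sign of RNA quality, the signal of the Gapdh control's 3′ probe set divided by that of its 5′ probe set, was 2.92, 2.62 and 2.46 on masseter arrays 1 to 3 and 1.87, 1.88 and 2.07 on the tibialis anterior arrays, and its part in the results was not tested. Masseter 1 stood apart in salivary gland transcripts. The summed signal of the 5 measured salivary genes was 49310, 7514 and 3196 in masseter arrays 1 to 3 and 5734, 3281 and 2416 in tibialis anterior arrays 1 to 3. Smr2 alone gave 2123.3 of the sum in masseter 3 and 1848.5 in tibialis anterior 3, but only 1010.4 in masseter 1. Member and ratio differences that rest on masseter 1 are given with and without it, and those of markers and other genes only with it.

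None of the calcium pump, store and buffer genes passed the threshold of 0.05 on limma's adjusted p. The counts were 0 of 11 probe sets higher in the masseter, where 0.56% of all probe sets tested were higher, and 0 of 11 lower, where 0.619% were lower. At an unadjusted p under 0.05 there were 0 higher and 2 lower, those of Sln and Casq1, against 6.93% and 6.12% of all probe sets tested. Sln, whose masseter mean was under the filter, entered the test through its tibialis anterior signal, so it adds no support to this count or to the next. With the paired SAM statistic the counts were also 0 and 0. The median difference of the 11 was -0.09, and that of all probe sets tested was 0.02. In 3 of the 11, those of Sln, Casq1 and Pvalb, all 3 masseter arrays lay under all 3 tibialis anterior arrays, an arrangement found in 8.63% of all probe sets tested. Among the 540 tested probe sets with a mean signal of 2000 or more, a level chosen after the values were seen, that share was 17.8%. In 0 of the 11 did all masseter arrays lie above the tibialis anterior arrays, against 9.21% of all probe sets tested.

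**Figure D1:**
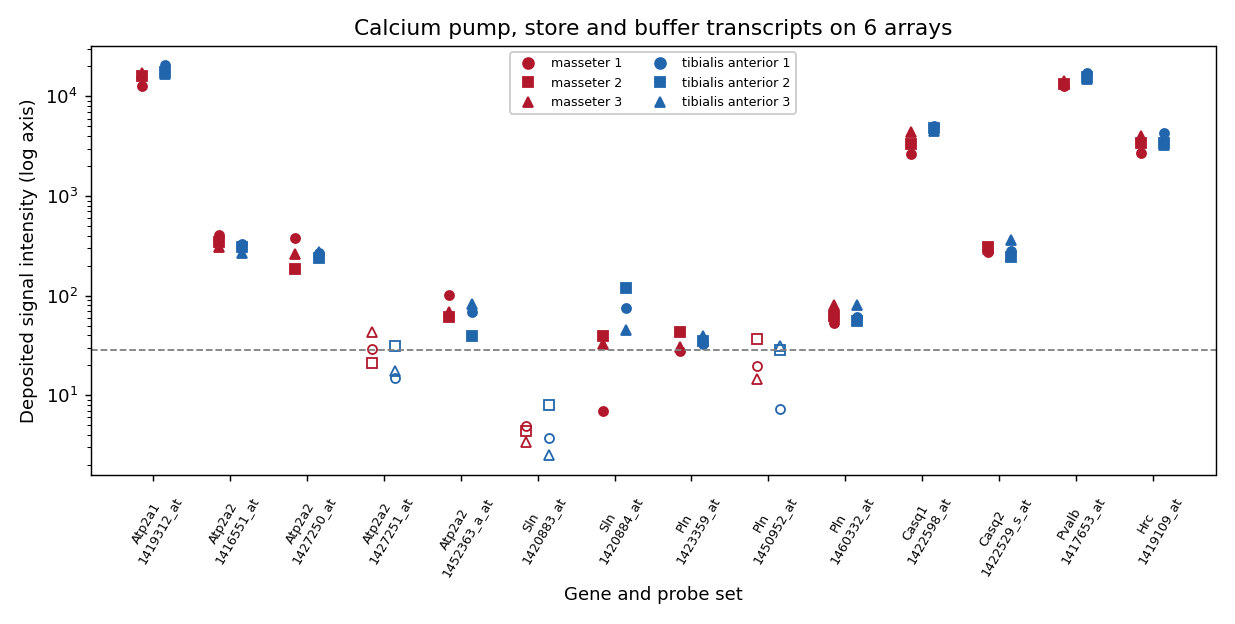
Signal intensity on a log axis of the 14 member probe sets on each of the 6 arrays, with the filter level of 28.6 as a dashed line and open symbols for the 3 probe sets that did not enter the test. The signals of the muscles lie close together for most genes, and the Sln probe set 1420884_at spreads most, from 7.0 in masseter 1 to 119.2 in tibialis anterior 2.

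The fast pump was among the brightest transcripts of both muscles. Atp2a1 had signals of 12826, 16192 and 17056 in masseter arrays 1 to 3 and of 20476, 17468 and 16818 in tibialis anterior arrays 1 to 3. The muscles overlapped, since masseter 3 lay above tibialis anterior 3, and masseter 1 was the lowest array. The difference was -0.25 ± 0.15 (SE), with a 95% interval of -0.59 to 0.08 (limma adjusted p = 0.528). The masseter was higher in 1 of 3 numbered pairs. Atp2a1 was the 3rd to 22nd brightest probe set of its array, and the highest signal of an array was 18461 to 22667, so a difference can be understated there. Without masseter 1, in a fit that has no block (as in all such fits below), it was -0.13, and with quantile normalization it was -0.14.

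The slow and cardiac pump gene Atp2a2 was read by 4 probe sets. Which of its transcript forms each one reads is not given in the sources used here. The brightest, 1416551_at, had signals of 404.6, 348.9 and 310.0 in masseter arrays 1 to 3 and of 329.8, 306.5 and 266.6 in tibialis anterior arrays 1 to 3. The masseter array was the higher one in 3 of 3 numbered pairs, and the groups overlapped. The difference was 0.23 ± 0.16 (SE; 95% interval -0.12 to 0.59; limma adjusted p = 0.593). Without masseter 1 it was 0.13.

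The other Atp2a2 probe sets did not share that pattern. Probe set 1427250_at had signals of 378, 187 and 263 in masseter arrays 1 to 3 and of 270.9, 238.4 and 272.9 in tibialis anterior arrays 1 to 3. Masseter 1 was its highest and masseter 2 its lowest array. Its difference of 0.03 ± 0.20 (SE; limma adjusted p = 0.973) became -0.23 without masseter 1. Probe set 1452363_a_at ran from 60.6 to 102.6 in the masseter and from 39.6 to 81.9 in the tibialis anterior (0.32 ± 0.27, SE; limma adjusted p = 0.691), and its difference was 0.10 without masseter 1 and 0.02 without tibialis anterior 2. The dimmest, 1427251_at, lay between 14.9 and 42.9 and did not enter the test.

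Sarcolipin was a dim transcript in both muscles, and its difference did not pass. Sln probe set 1420884_at had signals of 7.0, 39.1 and 32.5 in masseter arrays 1 to 3 and of 74.5, 119.2 and 45.6 in tibialis anterior arrays 1 to 3. The groups did not overlap, but masseter 2 and tibialis anterior 3 were near each other. The masseter mean, a signal of 20.7, lay under the filter level of 28.6, so the probe set entered the test through its tibialis anterior signal. The tibialis anterior mean was 2.58-fold that level. This is not a lower bound of the difference between muscles, as masseter 2 and masseter 3 lay above the level and masseter 1 under it. The masseter was the lower muscle in 3 of 3 numbered pairs. The fitted difference of -1.84 (limma adjusted p = 0.191) rests on masseter signals near background and its size is uncertain. It was -1.05 without masseter 1, -1.05 without replicate 1 and -1.21 with an offset of 16, and its adjusted p ranged from 0.0821 to 0.535 over 15 alternatives. The other Sln probe set, 1420883_at, lay between 2.5 and 8.0 and did not enter the test.

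Phospholamban was also dim. Pln probe set 1460332_at had signals of 52.9, 62.6 and 81.2 in masseter arrays 1 to 3 and of 61.2, 56.1 and 80.2 in tibialis anterior arrays 1 to 3. These values overlapped throughout, with a difference of -0.01 ± 0.24 (SE; 95% interval -0.57 to 0.55; limma adjusted p = 0.990). Probe set 1423359_at ran from 27.6 to 43.1 over the 6 arrays (-0.09 ± 0.39, SE; limma adjusted p = 0.950), and 1450952_at, between 7.3 and 36.6, did not enter the test.

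Calsequestrin 1, the main calcium-binding protein of the store in fast fibres, had muscle groups that did not overlap, and its difference did not pass. Casq1 had signals of 2658, 3314 and 4417 in masseter arrays 1 to 3 and of 5002, 4867 and 4519 in tibialis anterior arrays 1 to 3. All masseter arrays lay under all tibialis anterior arrays, and masseter 3 came within a narrow margin of tibialis anterior 3. The difference was -0.50 ± 0.17 (SE), with a 95% interval of -0.89 to -0.11 and a limma adjusted p = 0.251, a ratio of 1.41 in favour of the tibialis anterior. The 3 numbered pairs gave -0.91, -0.55 and -0.03. The log2 values spread more among masseter arrays (SD 0.37) than among tibialis anterior arrays (SD 0.08). Without masseter 1 the difference was -0.33, and over 16 alternatives its adjusted p ranged from 0.0963 to 0.609.

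Calsequestrin 2, the slow and cardiac partner, had nearly the same mean in both muscles. Casq2 had signals of 274.9, 305.7 and 293.3 in masseter arrays 1 to 3 and of 278.3, 244.6 and 361.6 in tibialis anterior arrays 1 to 3. The tibialis anterior arrays held both the lowest and the highest value. The difference was 0.00 ± 0.18 (SE; 95% interval -0.41 to 0.41; limma adjusted p = 0.999). With 3 arrays per muscle, a true difference anywhere within that interval remains possible. The suffix of its only probe set, 1422529_s_at, marks probes that can match more than 1 transcript.

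Parvalbumin, which binds calcium in the cytosol of fast fibres and speeds relaxation, was bright in both muscles. Pvalb had signals of 12732, 13340 and 14122 in masseter arrays 1 to 3 and of 17184, 15732 and 15085 in tibialis anterior arrays 1 to 3. The groups did not overlap. The difference was -0.26 ± 0.11 (SE; 95% interval -0.52 to 0.00; limma adjusted p = 0.392), and the masseter was the lower muscle in 3 of 3 numbered pairs. Pvalb was the 12th to 23rd brightest probe set of its array, near the top of the scale. Its difference was -0.09 with quantile normalization and -0.22 without masseter 1. Hrc had signals of 2702, 3371 and 3996 in masseter arrays 1 to 3 and of 4275, 3402 and 3240 in tibialis anterior arrays 1 to 3. Its groups overlapped (-0.12 ± 0.18, SE; limma adjusted p = 0.836), and without masseter 1 the difference was 0.02.

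**Figure D2:**
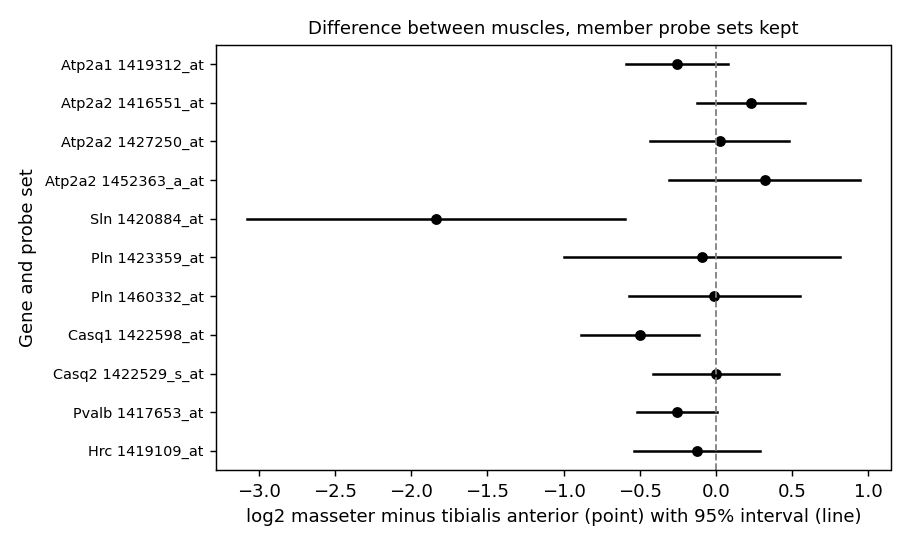
Log2 difference masseter minus tibialis anterior (points) with 95% intervals from limma (lines) of the 11 member probe sets tested, n = 3 arrays per muscle. The intervals of Sln, whose masseter mean is under the filter level, and of Casq1 lie under 0 before adjustment, and those of Atp2a2, Pln and Casq2 span 0.

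The fast and slow partners were then compared through their log2 ratio within each array, which a common scale factor of the array does not change. Its level has no meaning of its own because different probe sets are involved, and the difference between muscles shows unequal change. For the pumps, Atp2a1 minus Atp2a2 was 4.99, 5.54 and 5.78 in masseter arrays 1 to 3 and 5.96, 5.83 and 5.98 in tibialis anterior arrays 1 to 3. All masseter arrays lay under all tibialis anterior arrays by a narrow margin, 5.78 in masseter 3 against 5.83 in tibialis anterior 2. This holds for the brightest Atp2a2 probe set. With 1427250_at in its place the groups overlap. The log2 value of 1427250_at was 7.55 in masseter 2 and 8.09 in tibialis anterior 3, and that of Atp2a1 was 13.98 and 14.04. With the brightest probe set the difference was -0.49 ± 0.24 (SE). Its two-sided exact permutation p = 0.1 is the lowest that this design allows. Without masseter 1 the difference was -0.26.

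For the calsequestrins, Casq1 minus Casq2 was 3.27, 3.44 and 3.91 in masseter arrays 1 to 3 and 4.17, 4.31 and 3.64 in tibialis anterior arrays 1 to 3. The groups overlapped through masseter 3 and tibialis anterior 3. The difference was -0.50 ± 0.28 (SE; two-sided exact permutation p = 0.2), and without masseter 1 it was -0.37. For the pump inhibitors, Sln minus Pln was -2.92, -0.68 and -1.32 in masseter arrays 1 to 3 and 0.28, 1.09 and -0.81 in tibialis anterior arrays 1 to 3. The masseter 2 value lay above that of tibialis anterior 3. The difference of -1.82 (two-sided exact permutation p = 0.2) rests on Sln signals near background, so its size is uncertain. It was -1.19 without masseter 1 and -0.96 with the mean of all probe sets of each gene. These were 3 ratios, and with 3 arrays per muscle none can pass 0.05.

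The slow-fibre contractile genes give a context for the slow pump and calsequestrin. The 7 slow-fibre markers had a summed signal of 481.9 to 670.3 in the masseter and 3489 to 5823 in the tibialis anterior. Most of the tibialis anterior sum was Myl3, at 2422 to 4269. Of the 7, the myosin light chains Myl2 and Myl3 were lower in the masseter by limma (adjusted p = 0.00114 and 7.64e-05). The masseter means of Myl2, Myh7 and Tnni1, signals of 25.9, 19.9 and 21.8, lay under the filter level of 28.6. These genes entered the test through their tibialis anterior signal, so the Myl2 call adds no support. Myh7, Tnnc1, Tnnt1, Tnni1 and Tpm3 did not pass (limma adjusted p = 0.0671 to 0.791). The muscles overlapped for Tnnt1, Tnni1 and Tpm3. The differences of Atp2a2 and Casq2, 0.23 and 0.00, did not pass, and whether they differ from those of the light chains was not tested.

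**Figure D3:**
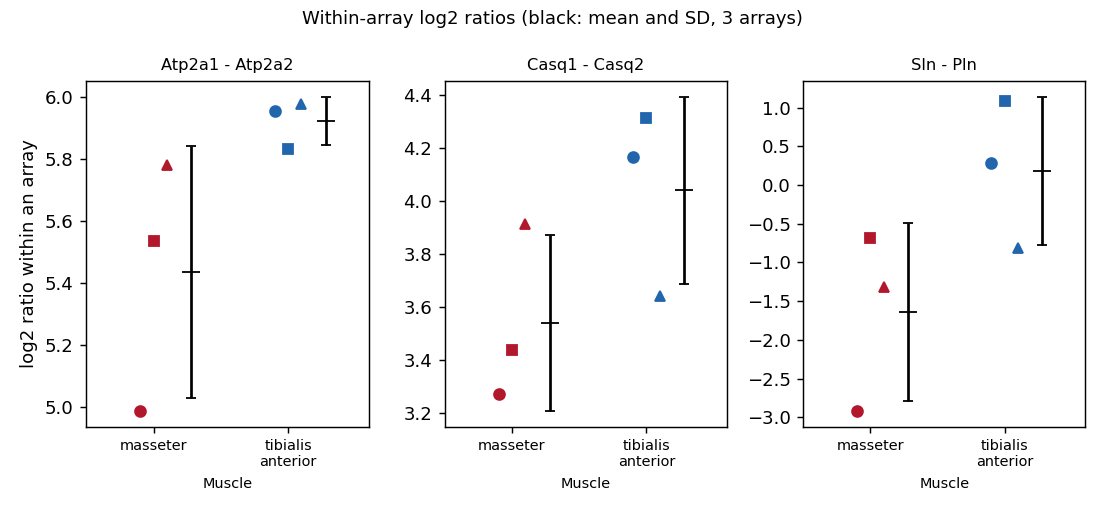
Log2 ratios within each array of Atp2a1 to Atp2a2, Casq1 to Casq2 and Sln to Pln. Red marks the masseter and blue the tibialis anterior, circles, squares and triangles mark replicates 1, 2 and 3, and black bars give the mean and SD of 3 arrays. With each gene's brightest probe set, the muscles are apart by a narrow margin for the pumps and overlap for the other ratios.

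Salivary gland signal moved with several of these values. The mean log2 signal of the 5 salivary genes was 12.80, 10.19 and 7.59 in masseter arrays 1 to 3 and 9.37, 7.80 and 6.38 in tibialis anterior arrays 1 to 3. By limma 2 of the 5 were higher in the masseter, namely Pip and Smr3a (adjusted p = 0.0113 and 0.0266). The muscles overlapped for both. Pip was 24.2 in masseter 3 and 72.4 in tibialis anterior 1, and Smr3a was 42.1 and 376.1 on these arrays. Both were highest in masseter 1, at 8070.6 and 10655.6, and their differences without that array were not tested. The Pip mean of the tibialis anterior, a signal of 17.5, lay under the filter level. Pip entered the test through its masseter signal. Smr2 went the other way without passing (-0.64, limma adjusted p = 0.327), and masseter 1 was its lowest array. From the highest, the arrays ran masseter 1, masseter 2 and tibialis anterior 1 both by salivary signal and by Atp2a2 probe set 1416551_at, and tibialis anterior 3 was lowest by both. Among 8308 other genes, the 3 with the log2 pattern most like that probe set over the 6 arrays were Snapc3, Pip and Chia1 (Pearson r = 0.992, 0.984 and 0.984), of which Pip is a secreted salivary protein. The arrays share their muscle groups and salivary content, and 117 genes had an r over 0.9, so this is a description. Masseter 1, the array with the highest salivary signal, was the lowest array for Atp2a1, Casq1, Sln, Pvalb, Hrc and the tested Pln probe sets. This was not particular to the members. Masseter 1 was also lowest for the skeletal muscle markers Ckm, Acta1, Mb, Ttn, Myh1 and Myh4, though not for Actn2. The part of the salivary signal in these differences was not tested, beyond the values without masseter 1 given above.

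**Figure D4:**
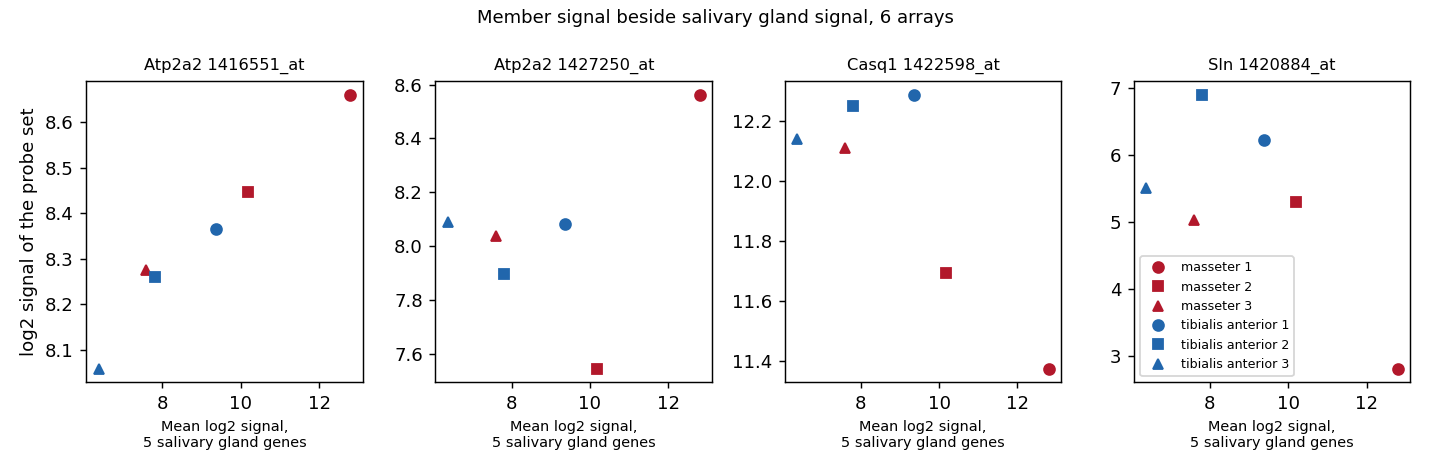
Log2 signal of 2 Atp2a2 probe sets, Casq1 and Sln on each array against the mean log2 signal of 5 salivary gland genes. Atp2a2 probe set 1416551_at is highest in masseter 1, where salivary signal is 12.80, and Casq1 and Sln are lowest there.

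The same measure of likeness was applied to Sln, the member with the smallest adjusted p, and to Casq2. Closest to Sln were Ndufc2, a subunit of respiratory complex I, Mff, a mitochondrial fission factor, and Vamp5, a vesicle membrane protein (r = 0.999, 0.992 and 0.991 over 6 arrays), with differences of -0.34, -0.52 and -0.49. Closest to Casq2 were Txnl4a, Flnc and Tcof1 (r = 0.966, 0.961 and 0.961), with differences of -0.01, -0.28 and 0.02. Sln entered the test through its tibialis anterior signal. Its signal was 7.0 in masseter 1 and 32.5 to 119.2 on the other arrays, so its r values lean on 1 array near background. Of the genes measured, 92 had an r over 0.9 with Sln and 30 with Casq2, so these likenesses are a description. None of these 6 genes passed the threshold by limma.

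Other cell types that could carry member transcripts were read from their markers. Of 5 smooth muscle markers, 0 passed in either direction, with a summed signal of 1895 to 2190 in the masseter and 1905 to 2972 in the tibialis anterior. Of 3 measured adipocyte markers, Adipoq was higher in the masseter (limma adjusted p = 0.0167), with a summed signal of 4030 to 5748 and 2885 to 4934. Of 3 measured nerve and Schwann cell markers, 0 passed, and their summed signal was 912.2 to 976.8 in the masseter and 531.2 to 644.4 in the tibialis anterior. Of the 7 fast-fibre markers, Myh4 and Actn3 were lower in the masseter (limma adjusted p = 0.00265 and 0.0342), with a summed signal of 76010 to 94900 and 105800 to 109700. The part of these other markers in the member values was not tested.

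Genes that act around the members in the calcium cycle gave 0 calls as well. The list of other calcium transport and storage genes holds plasma membrane and organelle pumps, sodium-calcium exchangers, store sensors and further buffers. Of its 27 genes, 15 had a probe set and 11 entered the test, with a median difference of 0.11. By limma's adjusted p 0 were higher and 0 lower, against 0.56% and 0.619% of all probe sets tested. At an unadjusted p under 0.05 there was 1 higher and 0 lower, against the same 6.93% and 6.12% of all probe sets. The 3 smallest adjusted p belonged to Slc8b1, the mitochondrial sodium-calcium exchanger, Atp2a3, the third SERCA gene, and Stim1, the store calcium sensor. Slc8b1 had signals of 96.3, 79.6 and 65.9 in masseter arrays 1 to 3 and of 32.8, 47.8 and 58.9 in tibialis anterior arrays 1 to 3, which did not overlap (0.82 ± 0.32, SE; limma adjusted p = 0.323). Atp2a3 differed by 0.38 ± 0.21 (SE; limma adjusted p = 0.496), with its highest signal, 254.6, in masseter 1, and Stim1 by 0.21 ± 0.20 (SE; limma adjusted p = 0.734).

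The list of excitation-contraction coupling genes holds the calcium release channel, the voltage sensor and the proteins that join the membranes of the triad. Of 14 genes, 12 had a probe set and 10 entered the test, with a median difference of -0.05. By limma's adjusted p 0 were higher and 0 lower, against 0.56% and 0.619% of all probe sets tested. At an unadjusted p under 0.05 there were 1 higher and 2 lower, against 6.93% and 6.12% of all probe sets tested. Asph, whose locus also codes for the triad protein junctin, had signals of 1845, 1468 and 2237 in masseter arrays 1 to 3 and of 2426, 3162 and 2771 in tibialis anterior arrays 1 to 3 (-0.60 ± 0.17, SE; limma adjusted p = 0.178). Cacng1, the gamma subunit of the voltage sensor, had signals of 1350, 1259 and 1445 in masseter arrays 1 to 3 and of 1057, 986.1 and 755.1 in tibialis anterior arrays 1 to 3 (0.55 ± 0.16, SE; limma adjusted p = 0.191). Cacna1s, its pore-forming subunit, had signals of 320.6, 371.1 and 323.6 in masseter arrays 1 to 3 and of 449.7, 526.9 and 451.5 in tibialis anterior arrays 1 to 3 (-0.49 ± 0.15, SE; limma adjusted p = 0.200). The groups of these 3 genes, which were named for their small p, did not overlap, an arrangement found in 9.21% of all probe sets tested with the masseter above and in 8.63% with it below. Cacng1 had the higher signals in the masseter, and Asph and Cacna1s in the tibialis anterior. The release channel Ryr1, named after its values were seen, differed by 0.07 ± 0.16 (SE; limma adjusted p = 0.904).

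**Figure D5:**
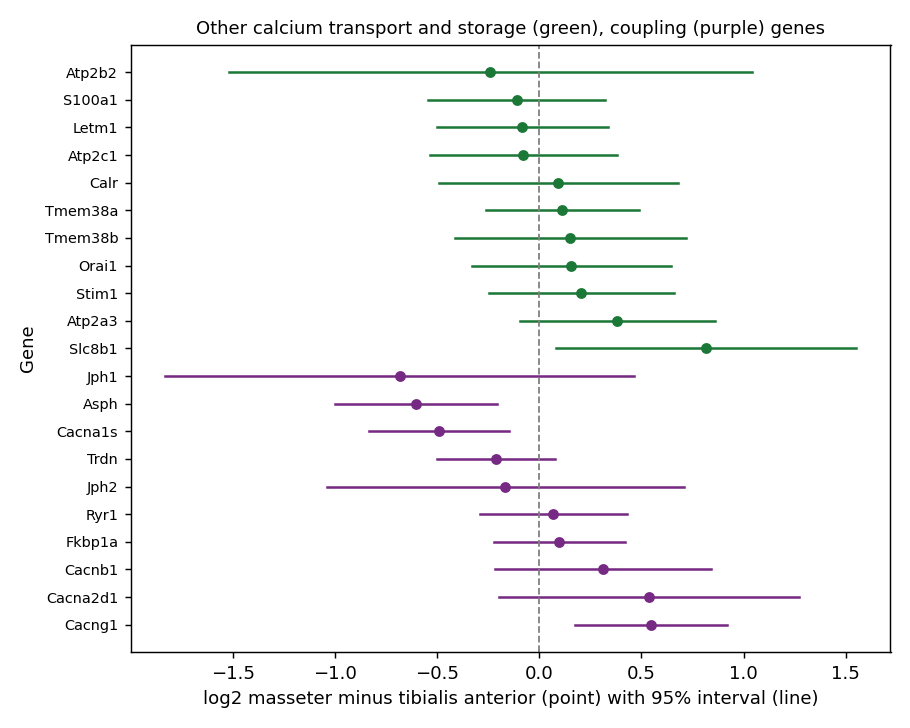
Log2 difference masseter minus tibialis anterior (points) with 95% intervals from limma (lines) of the 11 other calcium transport and storage genes (green) and 10 excitation-contraction coupling genes (purple) tested, n = 3 arrays per muscle. Most intervals span 0, and those of Slc8b1, Cacng1, Asph and Cacna1s do not before adjustment.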

How the data were processed

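Total RNA of 6 muscle samples was amplified, biotin-labelled and put on 1 oligonucleotide array each, per the labels' protocols. The authors deposited 1 scaled signal intensity per probe set and array. MAS5 and GCOS are the programs listed in the submitters' processing notes, with no role or settings. The number of arrays limits the precision. Gene names came from the platform annotation, and only probe sets with 1 gene symbol were named (20380 of 22690). Signals under 1 were set to 1 and taken to log2. The 64 controls and probe sets under the 40th percentile of mean log2 signal were left out, which kept 13576. The comparison used limma 3.58.1 (R 4.3.3; lmFit, eBayes with an intensity trend, two-sided, Benjamini-Hochberg), with the replicate number as a block because the design text describes paired comparisons. The sources used here do not say that the samples came from separate mice, so p-values measure the spread between these samples, which may be technical. Within-array ratios used each gene's brightest probe set. Named were all member probe sets, up to 3 genes per fixed list by adjusted p and the 3 genes most like Atp2a2, Casq2 and the member with the smallest adjusted p. Members, gene lists and marker lists were chosen with earlier results of these data known. Alternatives covered the block, trend, filter, offset, normalization, SAM and left-out arrays.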

Additional observations from a re-analysis of the deposited data

How the results depend on the processing

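For the member probe sets tested, 0 of 172 values under the alternatives passed the threshold, and counts of members and of both gene lists stayed at 0 in each alternative run. The sign turned in 18, the cause was not tested, and the values were as follows. For Casq2 they were -0.00025 with an offset of 16, -0.015 with quantile normalization and from -0.16 to 0.16 when a replicate or array was left out. For Hrc leaving out gave -0.34 to 0.15, for Atp2a2 probe set 1427250_at -0.23 to 0.28, for Pln probe set 1423359_at -0.296 to 0.0405 and for Pln probe set 1460332_at -0.18 to 0.14. The count of all probe sets past the threshold, 160, was 13 with eBayes without trend and 65 with paired SAM, and 47 to 188 when a replicate or array was left out. Single arrays, left out of fits that have no block, gave 78, 47 and 75 without masseter 1, 2 and 3 and 63, 65 and 57 without tibialis anterior 1, 2 and 3. With no replicate block it was 138, and the Sln difference kept its value of -1.84 (limma adjusted p = 0.268). Deviations from the muscle means correlated at 0.04, 0.15 and 0.10 in the same-numbered pairs, and not every sample correlated best with its own number, so the data do not show that numbers pair samples. The ratio differences moved by less than the SD within muscles, pooled over both, of each ratio. That SD is mainly the masseter's for the pumps, whose ratio difference went from -0.488 to -0.264 without masseter 1. Sln, Pln and 2 Atp2a2 probe sets lie near the filter level, where signal over background limits precision.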
